A study of Vulpes lagopus with 12 samples.

Results

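The mitochondrial fatty acid oxidation genes described here are CPT1A, CPT2, ACADVL, ACADL, ACADM, HADHA, HADHB, ETFDH and PDK4. They were read on Affymetrix Canine Genome 2.0 arrays, whose probes target dog transcripts, as every probe set whose only gene symbol in the probe annotation is one of these names. All 9 listed genes were found, with 21 probe sets among the 42924 tested on the array and 9 genes among the 15115 with a symbol of their own. The series holds blood RNA of Arctic foxes (Vulpes lagopus) on 11 arrays, numbered foxes 1 to 11 in listing order, and 1 array titled as a canine control. That array carries the same organism (Vulpes lagopus) and blood labels as the foxes, and no label says more about where its RNA came from. The series asks about polychlorinated biphenyls and mercury in fox blood cells, but the exposure of single foxes was not in the labels and was not analysed here, so the foxes were left ungrouped. All values are on the log2 scale, as deposited after the RMA method.

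Fatty acids are burned inside mitochondria, and long-chain fatty acids reach the matrix only as carnitine esters, which CPT1A makes on the outer membrane and CPT2 turns back into coenzyme A esters inside. Acyl-CoA dehydrogenases such as ACADVL, ACADL and ACADM then start each round of beta-oxidation. The trifunctional protein of HADHA and HADHB carries out the remaining steps for long chains. ETFDH passes the electrons of the acyl-CoA dehydrogenases to ubiquinone. PDK4 is not an enzyme of the pathway itself: it phosphorylates pyruvate dehydrogenase and so holds back glucose oxidation, and it is known to rise with fasting, as CPT1A is in liver, through the fatty acid receptor PPARA. Mature mammalian red cells have no mitochondria, so mitochondrial enzymes in blood are carried by white cells, platelets and immature red cells.

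The arrays differed in ways that touch every result below. Limma called 44.6% of all genes lower on the control and 18.5% higher. T cell genes, with 4 of 9 lower (44.4%), were near that share. Other blood markers were mostly, but not all, called lower. These were 4 of 6 neutrophil, 5 of 8 monocyte, 5 of 5 B cell, 4 of 7 platelet and 9 of 12 erythroid genes. As examples, the neutrophil protein S100A8 averaged 14.39 ± 0.79 in fox blood (SD, n = 11), against 8.64 for the control, and the red cell enzyme ALAS2 averaged 13.23 ± 1.53 in fox blood (SD, n = 11), against 6.57 for the control. The erythroid HEMGN (difference, control minus foxes, 3.32) and the T cell gene CD3G (1.12) were called higher on the control, and the granule protein LTF (0.26) and the monocyte receptor CD163 (1.33) were not called. Most liver (8 of 9) and intestinal (7 of 9) markers were called higher on the control, and other organ lists were mixed. The liver gene SERPINA1 (1.93) and the intestinal genes CDX1 (−0.39) and CDX2 (−0.34) were not called. The mean of 9 liver genes spanned 7.12 to 7.46 over the foxes, against 13.89 for the control. For 9 intestinal genes it spanned 6.17 to 6.33 over the foxes, against 11.17, and for 8 skeletal muscle genes 6.79 to 7.11, against 9.93, with 5 of these called higher and 3 lower (MYH1, CASQ1 and MYOT). Heart markers spanned 7.02 to 7.41 over the foxes, against 6.88 for the control, with 1 of 7 genes called higher and 3 lower. Adipocyte markers had 3 of 8 higher and 3 lower, and kidney markers 4 of 7 higher and 2 lower. Foxes 9, 10 and 11 stood apart from foxes 1 to 8 on one GAPDH 3′ minus middle probe difference (0.42 to 1.08, against 2.56 to 3.19) and one such actin difference (0.16 to 0.26, against 2.14 to 5.21), while EF1a and the other GAPDH and actin probe sets overlapped. Their arrays also had the wider spread of values (SD over all probe sets 1.93 to 2.02, against 1.6 to 1.79 in foxes 1 to 8), and that of the control was 2.11. In blood RNA, fewer cells of a type and less RNA per cell cannot be told apart.

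Most fatty acid oxidation genes were higher on the control array than in the foxes, by 2.90-fold for ACADL, 36.2-fold for ACADM and 130-fold for PDK4. Each of these is from the gene's probe set of highest mean, and the other PDK4 set differed by −0.28 (log2) and was not called. Of the 21 probe sets, limma with Benjamini-Hochberg adjustment over all 42924 called 15 higher on the control and 2 lower, and 4 were not called. On the whole array 18.9% of probe sets were called higher on the control and 42.1% lower, 61% in all. The control lay above all 11 foxes in 17 of the 21 and below all in 3, beside 21.9% and 55.1% of all probe sets. The median difference, control minus foxes, was 3.22 over the 21 probe sets and −0.46 over all probe sets. With each gene read from its probe set of highest mean, 7 of 9 genes were called higher on the control and 0 lower, beside 18.5% and 44.6% of all genes (63.2% in all). The control lay above all 11 foxes for 9 of 9 and below for 0, beside 21.7% and 56.1% of all genes. The control is a single array whose spread is assumed to be that of the foxes. On it 8 of 9 liver, 7 of 9 intestinal and 5 of 8 muscle markers were called higher. The part of these in the differences was not tested.

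**Figure D1:**
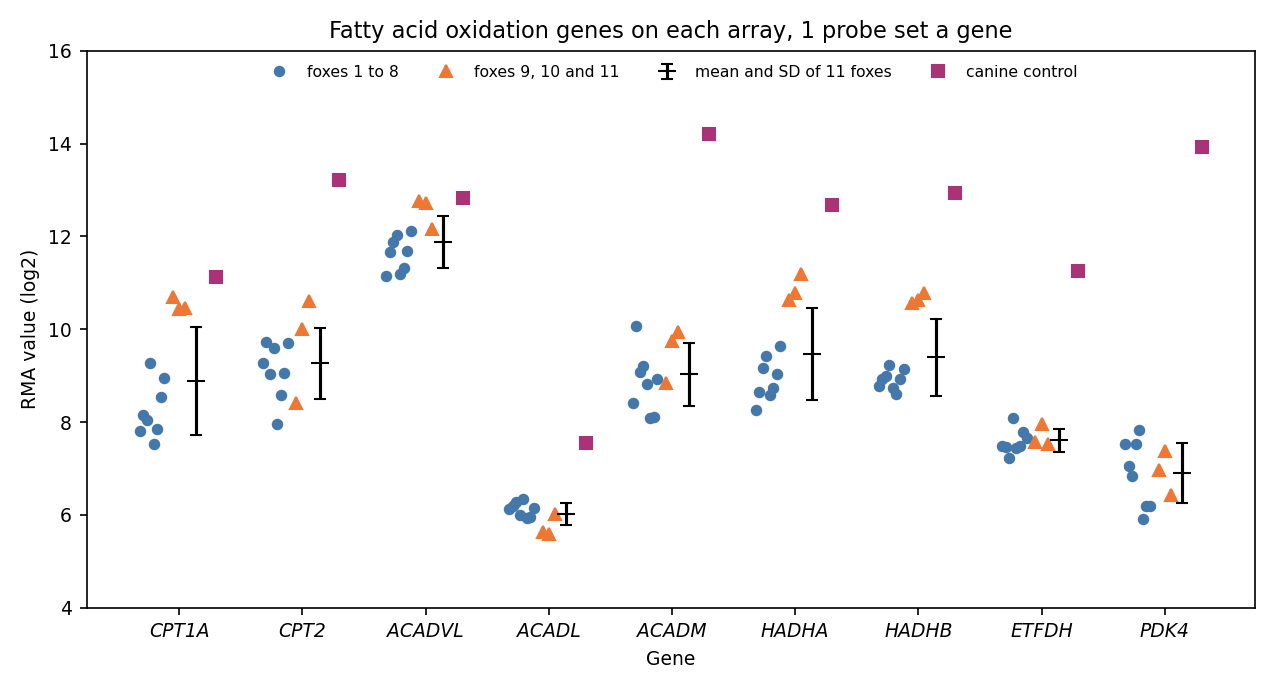
RMA values (log2) of the 9 genes, each by its probe set with the highest mean, on every array: circles are foxes 1 to 8, triangles foxes 9, 10 and 11, the bar is the mean and SD of the 11 foxes, and the square is the canine control. The control lies above all 11 foxes for each gene, and the foxes 9, 10 and 11 lie above foxes 1 to 8 for CPT1A, ACADVL, HADHA and HADHB.

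CPT1A, the gate of the pathway, was not called by its brighter probe set. Its brighter probe set ran from 7.54 in fox 5 through a median of 8.54 to 10.69 in fox 9, and stood at 11.13 on the control. The control was above all foxes, but foxes 9, 10 and 11, at 10.43 to 10.69, came close to it while foxes 1 to 8 stayed at or below 9.28. The control minus fox difference was 2.25 (SE 1.10), and limma did not call it (adjusted p 0.0935). Without foxes 9, 10 and 11 the difference was 2.86 and was called (limma adjusted p 0.00107). In that setting 30918 of all 42924 probe sets were called, against 26183 with all foxes. The dimmer CPT1A probe set ran from 5.21 to 5.64 in the foxes, with a median of 5.40, and stood at 4.91 on the control. That set was called lower on the control (difference −0.48, SE 0.17, limma adjusted p 0.0238), which is the shift of the median probe set (−0.46), and the call was lost when each array was centred on its median (adjusted p 0.286) and after quantile normalization again (adjusted p 0.0672).

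CPT2, the inner membrane partner, was higher on the control by its brightest probe set. It ran from 7.96 in fox 5 through a median of 9.28 to 10.61 in fox 11, and stood at 13.22 on the control, a difference of 3.95 (SE 0.72), or 15.4-fold, with a limma adjusted p of 0.000765. The control lay above all foxes in this set, as it did in 21.9% of all probe sets, and below all in 55.1%. The other CPT2 probe sets disagreed with each other: one ran from 6.79 to 7.40 in the foxes and stood at 6.39 on the control (difference −0.71, limma adjusted p 0.00502), the other ran from 4.84 to 5.57 in the foxes and stood at 6.46 on the control (difference 1.31, limma adjusted p 0.000286).

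Of the acyl-CoA dehydrogenases, ACADM and ACADL were called higher on the control and ACADVL was not. ACADM, which acts on medium chains, ran from 8.09 in fox 6 through a median of 8.93 to 10.06 in fox 2, and stood at 14.21 on the control. The difference of 5.18 (SE 0.65), or 36.2-fold, had a limma adjusted p of 3.97e-05. Both other ACADM probe sets were called higher on the control as well, by 3.67 (SE 0.20) and 4.78 (SE 0.28). The foxes spanned 6.54 to 7.21, against 10.38 for the control, in the second set, and 3.89 to 4.74, against 9.0, in the third. The control lay above all foxes in each of the 3, as it did in 21.9% of all probe sets.

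ACADL, a long-chain dehydrogenase, had a single probe set with little spread. It ran from 5.58 in fox 10 through a median of 6.03 to 6.35 in fox 5, and stood at 7.56 on the control, a difference of 1.54 (SE 0.25) or 2.90-fold (limma adjusted p 0.000310). Foxes 9 and 10 (5.63 and 5.58) were its lowest, opposite to their place in CPT1A.

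ACADVL, the membrane-bound dehydrogenase for the longest chains, was bright in every fox. Its brighter probe set ran from 11.14 in fox 1 through a median of 11.89 to 12.77 in fox 9, and stood at 12.82 on the control. That is just above the highest fox, and the difference of 0.94 (SE 0.53) was not called by limma (adjusted p 0.136). It turned to −0.16 after quantile normalization again, and without foxes 9, 10 and 11 it was 1.19 and was called (adjusted p 0.0108). The second ACADVL probe set ran from 7.0 to 10.84 in the foxes and stood at 10.38 on the control, inside the foxes (difference 1.97, SE 1.22, limma adjusted p 0.174). Without foxes 9, 10 and 11 that difference was 2.65 and was called (adjusted p 0.000313).

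Both chains of the trifunctional protein were higher on the control. Their genes are neighbours in the Arctic fox RefSeq annotation. HADHA, which holds the hydratase and hydroxyacyl dehydrogenase activities, ran from 8.27 in fox 1 through a median of 9.16 to 11.20 in fox 11, and stood at 12.69 on the control. HADHB, the thiolase chain, ran from 8.61 in fox 6 through a median of 8.99 to 10.77 in fox 11, and stood at 12.93 on the control. For both genes the control lay above all foxes, as it did for 21.7% of all genes. The differences were 3.22 (SE 0.93, limma adjusted p 0.0109) for HADHA and 3.54 (SE 0.79, limma adjusted p 0.00261) for HADHB, or 9.32-fold and 11.6-fold. The other HADHA probe sets differed by 1.75 (SE 0.36) and 2.02 (SE 0.32), both called.

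ETFDH, which passes on electrons from the acyl-CoA dehydrogenases, had 4 probe sets, all called higher on the control. The one with the highest mean ran from 7.23 in fox 3 through a median of 7.54 to 8.10 in fox 4, and stood at 11.25 on the control, a difference of 3.64 (SE 0.25, limma adjusted p 1.28e-07). A further ETFDH probe set gave the largest difference among all 21: the foxes ran from 5.58 to 7.61 with a median of 6.50, and the control stood at 14.65, a difference of 8.13 (SE 0.56), or 281-fold (limma adjusted p 1.26e-07). The remaining probe sets differed by 4.28 (SE 0.39) and 4.62 (SE 0.29). Thus the direction was shared by all 4, while the size ranged from 3.64 to 8.13.

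PDK4, the kinase that restrains pyruvate dehydrogenase, was far lower in every fox than on the control by its brighter probe set. It ran from 5.92 in fox 6 through a median of 6.98 to 7.83 in fox 5, and stood at 13.92 on the control. The difference was 7.02 (SE 0.61), or 130-fold, with a limma adjusted p of 1.30e-06. The other PDK4 probe set was dimmer and was not called: it ran from 6.30 to 6.76 in the foxes and stood at 6.28 on the control (difference −0.28, SE 0.19, limma adjusted p 0.209), and its sign turned after quantile normalization again (0.014). Without foxes 9, 10 and 11 that second set was called lower on the control (difference −0.37, adjusted p 0.0380).

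**Figure D2:**
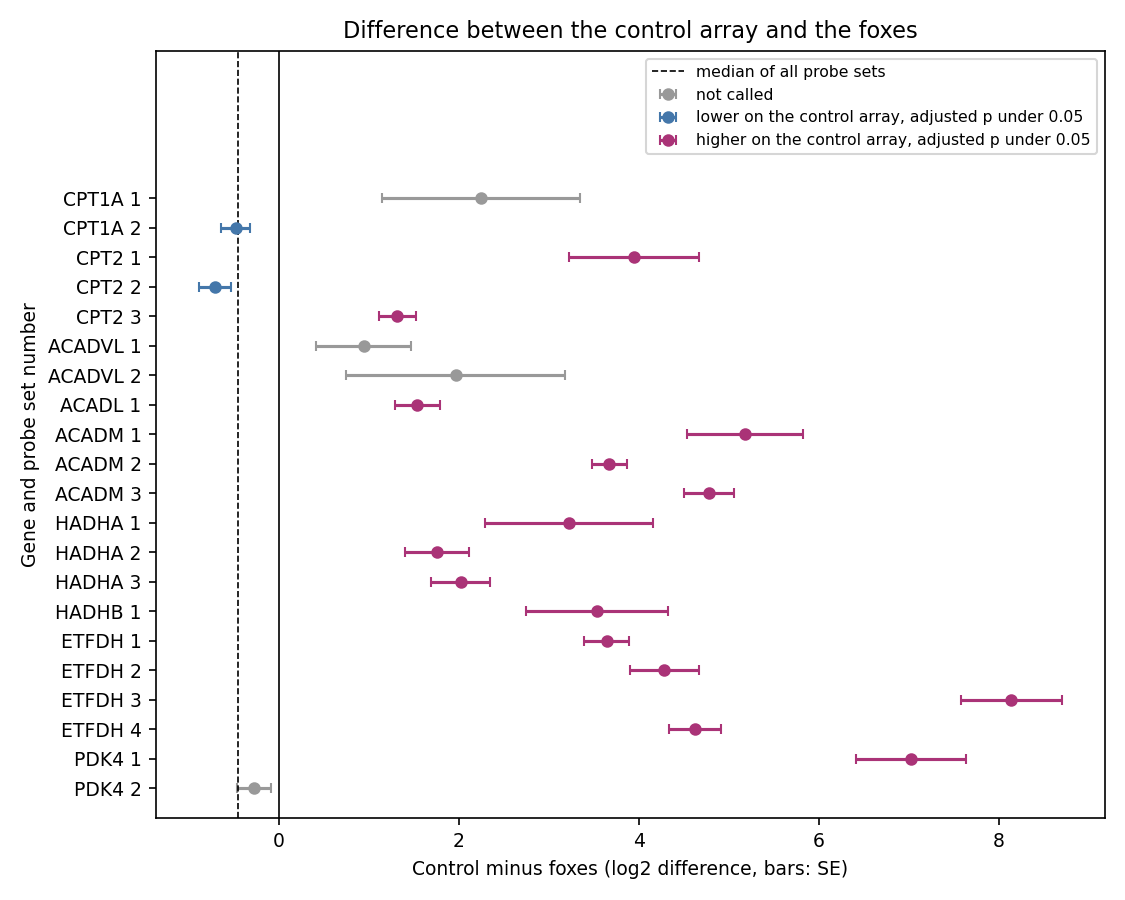
Control minus foxes (log2 difference, bars are the SE from limma) for the 21 probe sets, numbered within each gene from the highest mean down; colours give the limma call and the dashed line the median of all probe sets (−0.46). The points of ACADM, HADHA, HADHB and ETFDH all lie right of 0, while CPT1A, CPT2 and PDK4 have probe sets on both sides of 0.

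Agreement between probe sets of a gene was uneven. Of the 7 genes with more than 1 probe set, CPT1A, CPT2 and PDK4 had differences of both signs. For 5 of the 9 genes every probe set was called higher on the control: ACADL, ACADM, HADHA, HADHB and ETFDH. By Affymetrix naming, sets marked _s_ hold probes that match several transcripts. There were 9 of them among the 21, with 5 called higher on the control, 2 lower and 2 not called. Of all probe sets 18.9% were called higher and 42.1% lower. Both member sets called lower and the dim PDK4 set were among the 9. Whether the naming bears on the disagreement was not tested. With all probe sets of a gene averaged, the PDK4 difference was 3.37 (limma adjusted p 4.52e-06) and that of CPT2 1.52 (limma adjusted p 0.000264), while CPT1A (0.88) and ACADVL (1.45) were again not called.

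The rest of the pathway was read from 9 gene lists with 86 measured genes of 99 listed. In total 38 were called higher on the control by limma, 19 lower and 29 were not called, beside 18.5% higher and 44.6% lower of all genes. The median difference of these 86 genes was 0.50, and of all genes −0.53. With arrays centred, 43 were called higher and 12 lower. The median of the 86 was 0.17 after quantile normalization again, 0.77 with centring and 0.86 with a gene's probe sets averaged. Calls in both directions stood in 7 of the 9 lists.

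Among other acyl-CoA dehydrogenases and enzymes of the later steps, 7 of 14 genes were higher on the control, 3 lower and 4 not called, with a median difference of 1.5. ACADSB, the dehydrogenase of short branched chains, differed by 5.27 (SE 0.64). HADH, the hydroxyacyl dehydrogenase for shorter chains, differed by 4.12 (SE 0.33), the isomerase ECI2 for unsaturated fatty acids by 4.02 (SE 0.29) and the matrix thiolase ACAA2 by 2.96 (SE 0.61). The short-chain hydratase ECHS1 went the other way (−0.82, SE 0.19).

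In electron transfer 3 of 5 genes were higher on the control and 1 lower. ETFB, a chain of the flavoprotein that feeds ETFDH, averaged 6.60 ± 0.54 in fox blood (SD, n = 11), against 9.94 for the control (difference 3.34, SE 0.52). Its partner chain ETFA was called lower (−0.45, SE 0.18, limma adjusted p 0.0468), a difference close to that of the median probe set (−0.46), and the call was lost under 12 of 16 alternatives. ETFRF1, a regulator of the flavoprotein, differed by 3.26 (SE 0.43), and the dimethylglycine dehydrogenase DMGDH by 1.17 (SE 0.20).

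Ahead of beta-oxidation, of 8 genes that activate fatty acids, 2 were higher on the control, 1 lower and 5 not called, with a median difference of 0.31. The acyl-CoA synthetase ACSL1 averaged 12.20 ± 0.71 in fox blood (SD, n = 11), against 14.70 for the control (difference 2.5, SE 0.67). ACSL6 differed by 1.67 (SE 0.17) and ACSL5 by −1.73 (SE 0.32). Of 7 genes of carnitine handling, 2 were higher on the control, 0 lower and 5 not called, with a median of 0.02. These 2 were MLYCD (2.03, SE 0.24), which removes the CPT1 inhibitor malonyl-CoA, and CROT (1.53, SE 0.25), the peroxisomal carnitine octanoyltransferase. CPT1B, the muscle form of CPT1, was not called (−0.49, SE 0.24, limma adjusted p 0.0887).

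PDK4's own target and its relatives were called in both directions. Of 13 genes of pyruvate dehydrogenase and its control, 7 were higher on the control, 3 lower and 3 not called, with a median of 2.73. DLD, the dihydrolipoamide dehydrogenase chain, differed by 6.28 (SE 0.39), PDHA1, the chain that PDK4 phosphorylates, by 3.88 (SE 0.55), and the mitochondrial pyruvate carrier MPC1 by 3.35 (SE 1.0). Among the other kinases PDK1 differed by 3.25 (SE 0.69). PDK2 went the other way (−1.17, SE 0.22), and PDK3 was not called (−0.41, SE 0.73, limma adjusted p 0.642).

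Oxidation in peroxisomes, which shortens very long and branched chains, had 6 of 10 genes higher on the control, 1 lower and 3 not called, with a median of 2.03. PECR differed by 5.54 (SE 0.25), HSD17B4, the bifunctional enzyme, by 4.97 (SE 0.41), SCP2, a thiolase and sterol carrier, by 4.13 (SE 0.80), and the transporter ABCD3 by 2.33 (SE 0.16). Of 3 measured ketone body genes, ACAT1 (4.61, SE 0.50), the mitochondrial acetoacetyl-CoA thiolase, and BDH1 (1.04, SE 0.33), which makes hydroxybutyrate, were higher on the control. The BDH1 call was lost after quantile normalization again (adjusted p 0.442). OXCT1, which lets tissues use ketone bodies, was not called (−0.90, SE 0.79).

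Of 14 regulators of the PPAR system, 3 were higher on the control, 7 lower and 4 not called. These shares, 21.4% and 50%, were near those of all genes (18.5% and 44.6%), as was the median of −0.41. Of the lower calls, those of PPARGC1A (adjusted p 0.297) and HNF4A (adjusted p 0.0719) were lost in limma with centring. PPARG, the fat cell receptor, differed by 2.73 (SE 0.15), the transcription factor FOXO1 by 1.85 (SE 0.19) and PPARA by 1.73 (SE 0.23), while the orphan receptor ESRRG differed by −1.28 (SE 0.23). Genes known to respond to PPAR receptors were called in both directions, 6 higher, 3 lower and 3 not called of 12, with a median of 0.89. The liver fatty acid carrier FABP1 differed by 7.98 (SE 0.20), the fatty acid transporter CD36 by 6.48 (SE 0.23), the fatty acid hydroxylase CYP4A11 by 5.59 (SE 0.23) and the muscle carrier FABP3 by 3.17 (SE 0.17).

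**Figure D3:**
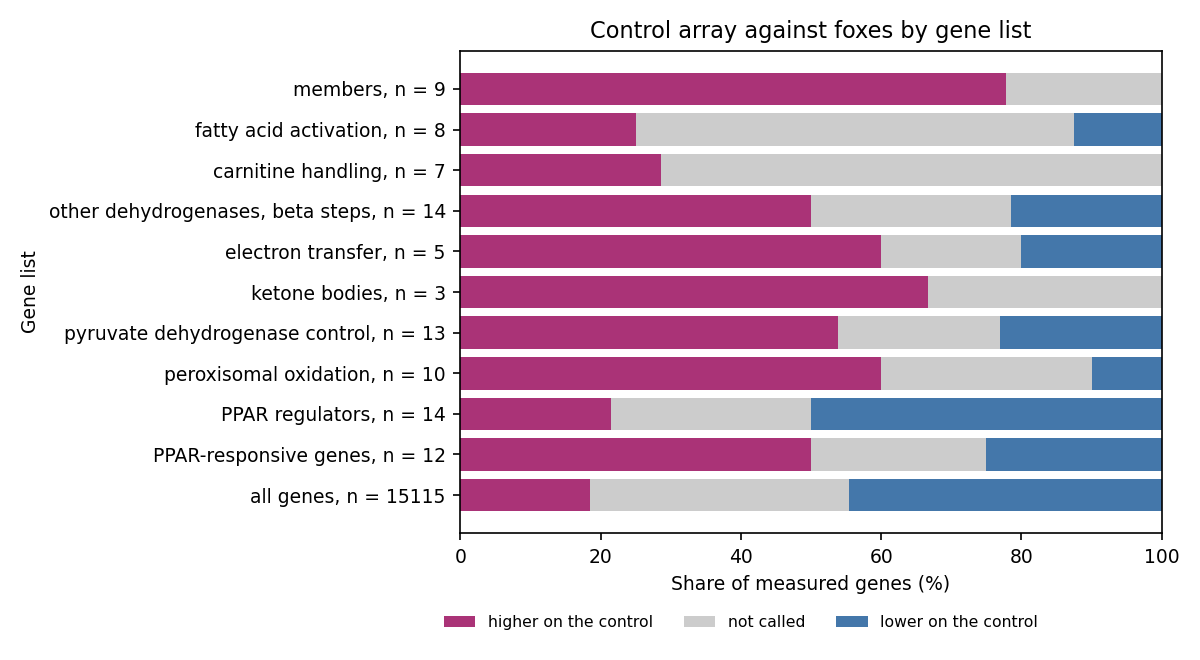
Share of measured genes (percent) in each list that limma called higher on the control array, did not call, or called lower, for the 9 members, the 9 pathway lists and all 15115 genes; n is the number of measured genes. The members have 7 of 9 genes higher on the control and the PPAR regulators 3 of 14.

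Among the foxes themselves, some members were highest in foxes 9, 10 and 11 by their sets of highest mean and others were not. By these sets, CPT1A, ACADVL, HADHA and HADHB had all of foxes 9, 10 and 11 above all of foxes 1 to 8. Of all genes 14.2% did. In CPT2, ACADL, ACADM, ETFDH and PDK4 these foxes overlapped with the others. Other sets of a gene did not always follow. The dimmer CPT1A set and the second HADHA set overlapped. The dimmest CPT2 set had foxes 9, 10 and 11 above (5.24 to 5.57, against 4.84 to 5.22). Over all probe sets of the members, 7 of 21 had foxes 9, 10 and 11 above and 1 (the dimmer PDK4 set) had them below, beside 12.6% above and 14.6% below of all probe sets. No label names these foxes as a group, and they were set apart by the data, so the split is a description with no test. The sample numbers in the titles also run in blocks: foxes 1 to 5 form one run, foxes 6 to 8 another, foxes 9 and 10 one more, and fox 11 has a code of another form. What the runs stand for is not stated, so the split and whatever they mark cannot be told apart.

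HADHB lay at 10.57 to 10.77 for foxes 9, 10 and 11, with foxes 1 to 8 at 8.61 to 9.23. For CPT1A these ranges were 10.43 to 10.69, against 7.54 to 9.28, and for HADHA 10.63 to 11.20, against 8.27 to 9.63. For ACADVL they were 12.17 to 12.77, against 11.14 to 12.11, a gap smaller than its spread within foxes 1 to 8. After quantile normalization again the count of probe sets above was 6 of 21, beside 10.1% of all; the set that dropped out was the brighter one of ACADVL.

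Marker genes of several blood cells moved with the same foxes. The mean of 8 monocyte genes lay at 10.91 to 11.23 for foxes 9, 10 and 11, while foxes 1 to 8 lay at 9.60 to 10.31, with 5 of the 8 genes above in all of these foxes. That of 9 T cell genes lay at 8.36 to 8.57, against 7.73 to 8.05, with 5 of 9 above. That of 7 platelet genes lay at 8.91 to 9.22, against 7.72 to 8.76, with 3 of 7 above. Over all genes 14.2% had foxes 9, 10 and 11 above foxes 1 to 8. The means of neutrophil genes (11.41 to 12.93, against 9.83 to 11.86) and erythroid genes (8.90 to 9.04, against 8.21 to 9.23) overlapped, and B cell genes lay lower (6.65 to 6.87, against 6.91 to 7.12). The part of cell makeup, of the GAPDH and actin differences and of the wider spread of these arrays in the split was not tested.

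**Figure D4:**
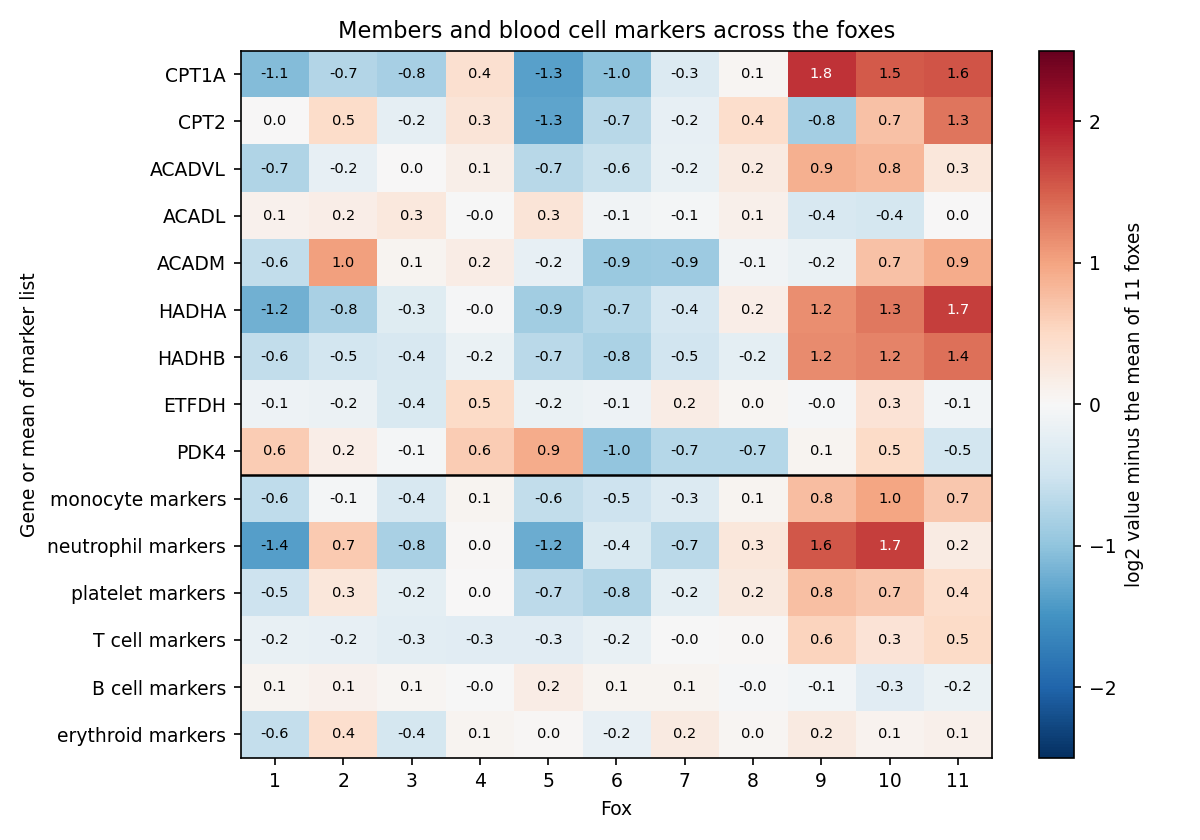
Each fox's log2 value minus the mean of the 11 foxes, for the 9 genes (upper rows, probe set with the highest mean) and for the means of 6 blood cell marker lists (lower rows). CPT1A, HADHA and HADHB are high in foxes 9, 10 and 11 together with monocyte markers, while PDK4 is lowest in foxes 6, 7 and 8 and not high in these foxes as a group.

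Within foxes 1 to 8 the members differed in how much they varied. PDK4 had the largest SD of the 9 genes (0.73, n = 8), followed by ACADM (0.65), CPT2 (0.61) and CPT1A (0.60), and ACADL had the smallest (0.15). The median SD within foxes 1 to 8 was 0.46 over the 9 genes and 0.19 over all genes. The brighter PDK4 set lay at 6.85 to 7.83 in foxes 1 to 5, and at 5.92 to 6.18 in foxes 6, 7 and 8. This divide falls between 2 runs of title numbers but was picked out after the values were seen. How many other probe sets share it was not counted. In the dimmer PDK4 set these foxes overlapped, with fox 4 at 6.54 and fox 6 at 6.67. ACADM was high in fox 2 (10.06) alone among these foxes, the next being fox 4 at 9.21. In HADHB foxes 4 and 8 were the highest of the 8, at 9.23 and 9.15, as they were in CPT1A, at 9.28 and 8.94.

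Of the 36 pairs of members, 25 had a positive Pearson correlation over foxes 1 to 8, with a median r of 0.42. The same was not computed for pairs of other genes, so whether members differ from them is not known. That median was 0.22 after quantile normalization again, and 0.40 with centring and with a gene's probe sets averaged. By an exact two-sided permutation test with Benjamini-Hochberg adjustment over the 36, 3 pairs passed. ACADVL and HADHA had r = 0.93 (exact p 0.000992, adjusted p 0.0357) and Spearman's rho of 0.98 (exact p 0.000397, adjusted p 0.0143). ACADVL and HADHB had r = 0.91 (exact p 0.00305, adjusted p 0.0411) and rho of 0.86 (exact p 0.0107, adjusted p 0.111). CPT1A and HADHB had r = 0.89 (exact p 0.00342, adjusted p 0.0411) and rho of 0.83 (exact p 0.0154, adjusted p 0.111). Without the 2 foxes farthest from the median of the first gene, r was 0.88, 0.97 and 0.64 for these pairs (exact permutation p 0.0222, 0.00556 and 0.171). For CPT1A and HADHB the foxes left out were 4 and 8. Leaving out the farthest foxes narrows the range of the first gene, so a lower r does not show that a pair rested on them.

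The adjusted calls of these pairs changed with the processing. No pair passed after quantile normalization again, after centring, or with a gene's probe sets averaged, where 3, 8 and 5 pairs had an unadjusted exact permutation p under 0.05, against 9 as deposited. Without fox 3, 6 pairs passed, without fox 2 only ACADVL and HADHA did, and without any 1 of foxes 1, 4, 5, 6, 7 or 8 none did (7 to 10 pairs at an unadjusted p under 0.05). No run of title numbers holds the 6 foxes a correlation needs, so none is given within runs. It is not stated whether all arrays were normalized together, and the spread of all values differed between them. PDK4 and ACADL took part in none of the 3 pairs, and the lowest r of any pair was that of ACADL and ETFDH (−0.62, exact permutation p 0.0985, adjusted p 0.322; rho −0.76, exact p 0.0368, adjusted p 0.189; r −0.89 without foxes 5 and 6).

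**Figure D5:**
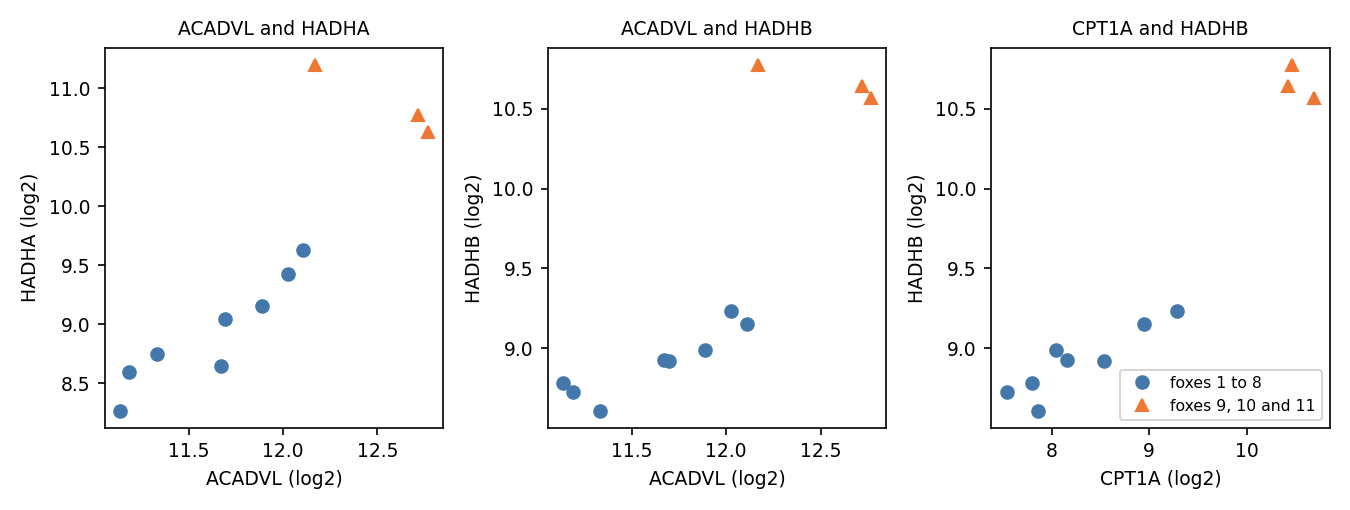
Log2 values of the 3 pairs of genes that passed the permutation test over foxes 1 to 8 (circles), with foxes 9, 10 and 11 (triangles) left out of the test. In each panel foxes 1 to 8 line up from low to high, and foxes 9, 10 and 11 lie above them on both axes.

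Set against 6 blood cell marker scores over foxes 1 to 8, 38 of 54 pairs of a score and a member were positive. That share was not computed for other genes. Their median r was 0.36 as deposited, but 0.02 after quantile normalization again. None passed the adjustment (0 by Pearson and 0 by Spearman). At an unadjusted exact permutation p under 0.05 stood 12 and 13, and 7 by Pearson after quantile normalization again. The monocyte score had r = 0.88 with CPT1A (exact p 0.00568, adjusted p 0.110; rho 0.95, exact p 0.00114, adjusted p 0.0603; r 0.67 without foxes 4 and 8), and r = 0.87 with ACADVL and 0.86 with HADHB (exact p 0.0102 and 0.00761, both 0.110 adjusted). The platelet score had r = 0.85 with CPT2 (exact p 0.00496, adjusted p 0.110; rho 0.90, exact p 0.00456, adjusted p 0.0782; r 0.82 without foxes 2 and 6). Without fox 1, 3 pairs passed by exact permutation (CPT2 with monocyte and platelet scores, HADHA with the B cell score, where r was −0.91, each adjusted p 0.0464), and without fox 2, 3 others did (CPT1A and HADHA with the monocyte score, HADHB with the platelet score, each adjusted p 0.0429).

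The genes whose pattern over foxes 1 to 8 was most like that of a member were sought among 4496 genes with levels above the median gene and an SD of at least 0.2. With so many candidates and 8 foxes the highest r values are a description only. CPT1A was most alike SUMF1, CUL1 and PTGER4, a prostaglandin E receptor (each r = 0.99). HADHA was most alike ATXN2 and COPZ1 (both r = 0.99) and MKLN1 (0.98), and HADHB was most alike KYNU, the kynureninase of tryptophan breakdown, TMEM230 and MAPK6 (0.98, 0.97 and 0.97). ACADVL was most alike PPP2CA, a phosphatase subunit (0.98), PRDX5, a peroxiredoxin (0.98), and VDAC2, a channel of the outer mitochondrial membrane (0.98). CPT2 was most alike SNUPN, TOX4 and HPCAL1 (0.97, 0.96 and 0.96), ACADM was most alike LRRC56, CHIC2 and ATP2C1 (0.97, 0.96 and 0.95), and ETFDH was most alike VAV3, ATP11B and SRP9 (0.95, 0.93 and 0.93). The likeness was lower for PDK4, with TRPC7 (0.87), the peroxisomal oxidase ACOX3 (0.84) and IER3IP1 (0.83), and for ACADL, with UMPS (0.87), NUMA1 (0.84) and AGMAT (0.82), whose own spread was small.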

How the data were processed

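RNA from fox blood was hybridised to Canine Genome 2.0 arrays. Per the submitters' processing notes, the authors made the deposited log2 values with RMA in Expression Console (Affymetrix); no version is stated. The number of arrays limits the precision. The table held 43035 probe sets, 111 of them Affymetrix controls that were not tested, and no detection calls. With the members and gene lists chosen with earlier results of these data known, limma 3.58.1 (R 4.3.3; lmFit and eBayes) compared the control with 11 foxes at an adjusted p of 0.05 over all 42924 probe sets. The labels do not say that the foxes were separate animals and give no batch. With 1 array against 11, exact permutation allows no p below 0.0833. Genes outside the members were read from the probe set with the highest mean. The highest mean of a gene was taken over all 12 arrays, the control included. Named genes were all members, up to 4 called genes of each pathway list with the largest differences, and the 3 genes most like each member; others named were chosen after their values were seen. Scores were means of centred marker genes. Alternatives were low-level probe sets left out, quantile normalization again, centring, limma with trend and robust, a minimum log2 difference of 1, calls by the foxes' range, mean probe sets, Spearman, and left-out foxes. The fits were tested on simulated data.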

Additional observations from a re-analysis of the deposited data

How the results depend on the processing

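Of the 21 member probe sets, 16 kept direction and call when low-level sets were left out (where tested), after quantile normalization again, with centring, with limma's trend and robust options and with foxes left out. The minimum difference and the foxes' range were run on counts only: with a log2 difference of at least 1, 15 sets were called higher and 0 lower, so that CPT1A and CPT2 lost their lower calls, and by range 17 lay above and 3 below. The brighter ACADVL set turned to −0.16 and the dimmer PDK4 set to 0.014 after quantile normalization again. With low-level probe sets left out, 13 member sets remained to be tested, of which 10 were called. For pathway genes this was 36 of 63, and for all probe sets 12802 of 21462, with fewer tested than in the main fit. The level was the mean over all 12 arrays, the control included. A set high only on the control could thus pass, so these counts are no check on the higher calls. With a log2 difference of at least 1, 11816 probe sets were called, 6637 higher on the control and 5179 lower. Centring gave 9348 higher and 9914 lower. Leaving out 1 fox gave 17 member sets each time, 55 to 59 pathway genes and 25001 to 27620 probe sets. Without foxes 9, 10 and 11 all 21 member sets were called, 18 higher and 3 lower. In that setting 30918 of all 42924 probe sets were called as well, 9840 higher and 21078 lower, against 26183 with all foxes. The median SD of the members over the foxes was 0.37, and the median range over foxes 1 to 8 was 0.91. Pairs of members passing the adjustment were 3 as deposited, 1 by Spearman, 0 after quantile normalization again, 0 with centring, 0 with mean probe sets and 0 to 6 with 1 fox left out, and pairs with marker scores 0 as deposited and 0 to 3 with 1 fox left out; the cause was not tested. Quantile normalization again and centring of the fox split were chosen after seeing the data. No paired analysis was possible because the control and the foxes share no replicate numbers in the labels. Without detection calls, dim probe sets have no known floor.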
